A study of Mus musculus with 4 samples.

Results

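The genes described here are 10 enzymes and transporters that make or handle sphingolipids and the barrier lipids of the epidermis: Sgms1, Sgms2, Ugcg, Sptlc1, Sptlc2, Cers2, Aloxe3, Alox12b, Abca12 and Elovl4. They were taken by gene symbol from the 18193 genes that the platform annotation names on the array, and 23 probe sets carry these symbols. The genes were chosen by shared function and with their UVB signals on these same arrays known, so the sizes of the UVB differences describe the set and carry no test. Gene expression was measured on Affymetrix arrays in cultured primary keratinocytes of newborn C57BL/6 mice, with 1 array for each of 4 groups. The groups were WT cells without irradiation, WT cells 4 h after UVB at 75 mJ/cm2, p38a-KO cells without irradiation and p38a-KO cells 4 h after the same UVB dose. p38a is the stress-activated kinase encoded by Mapk14, and UVB is an ultraviolet band that reaches the epidermis. The labels give neither the allele nor the driver of the deletion and do not say whether cells of several animals were pooled, so KO in the text and KO-labelled in the plots stand for the label of these cells. With 1 array per group there is no replicate spread, no p-value is given, and every difference is between single arrays.

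Sphingolipid synthesis starts in the endoplasmic reticulum, where serine palmitoyltransferase joins serine to a fatty acyl-CoA and ceramide synthases later attach a second fatty acid to give ceramide. Ceramide then moves to the Golgi, where it is turned into sphingomyelin by sphingomyelin synthases or into glucosylceramide by glucosylceramide synthase. Keratinocytes of the upper epidermis pack glucosylceramide and sphingomyelin into lamellar granules, secrete them, and convert them back to ceramides that form the water barrier. Part of these ceramides carry very long fatty acids with linoleate at the end, which the epidermal lipoxygenases oxidise before the lipid is bound to the cornified envelope.

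Promoter sequence is shown for 3 genes. They are Sgms1 and Ugcg for their UVB values, and Elovl4, which read lower in the KO cells in both conditions on both of its probe sets. The sequences are from RefSeq (mouse assembly GRCm38.p6), cover the 250 bases before a listed transcription start, and run 5′ to 3′ on the strand of the gene. Capitals mark matches on either strand. They are the GC box with the letters GGGCGG, the box named after its letters CCAAT, and the AP-1 site, which reads TGANTCA. Sgms1 has 4 listed starts, of which the outermost and an internal one are shown.
Sgms1, outermost start, chr19:32388513-32388762, minus strand: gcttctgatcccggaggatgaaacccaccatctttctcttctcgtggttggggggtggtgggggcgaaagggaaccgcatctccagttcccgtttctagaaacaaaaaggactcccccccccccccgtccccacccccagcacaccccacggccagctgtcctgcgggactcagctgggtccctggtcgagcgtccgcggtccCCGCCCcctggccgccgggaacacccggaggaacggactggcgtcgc
Sgms1, internal start, chr19:32211014-32211263, minus strand: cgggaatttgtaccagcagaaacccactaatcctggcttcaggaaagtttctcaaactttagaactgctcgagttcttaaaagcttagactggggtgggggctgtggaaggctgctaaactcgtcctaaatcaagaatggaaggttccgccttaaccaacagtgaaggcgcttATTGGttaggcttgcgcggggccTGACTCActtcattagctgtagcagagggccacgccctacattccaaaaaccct
Ugcg, chr4:59189300-59189549, plus strand: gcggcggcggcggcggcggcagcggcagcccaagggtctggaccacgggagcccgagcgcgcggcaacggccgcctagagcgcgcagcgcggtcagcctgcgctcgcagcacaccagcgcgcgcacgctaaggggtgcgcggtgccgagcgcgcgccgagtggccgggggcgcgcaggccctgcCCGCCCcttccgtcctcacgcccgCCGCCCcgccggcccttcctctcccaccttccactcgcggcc
Elovl4, chr9:83806306-83806555, minus strand: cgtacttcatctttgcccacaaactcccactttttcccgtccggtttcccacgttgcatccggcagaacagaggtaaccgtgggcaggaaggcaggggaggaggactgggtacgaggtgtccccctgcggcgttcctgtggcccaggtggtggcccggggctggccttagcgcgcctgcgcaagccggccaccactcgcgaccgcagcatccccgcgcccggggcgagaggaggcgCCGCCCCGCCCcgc
The windows of Ugcg (80.4% G or C), Elovl4 (69.6%) and the outermost Sgms1 start (67.2%) were richer in G and C than the median of all 32851 windows (52.4%), and the internal Sgms1 window (49.6%) was not. Windows were listed for 9 of the genes, with Alox12b among them and Aloxe3 missing, so they are not the 9 genes called measured below. A GC box occurred in 10 of the 18 windows of these 9 genes and in 32.7% of all windows. These 10 windows belong to 8 of the 9 genes, a count not comparable with that share because some genes have several windows. A CCAAT box occurred in 6 of the 18 windows and in 33.8% of all. The AP-1 letters occurred in 3 of the 18, which belong to 2 genes, and in 6.75% of all. The letters TATAAA, which 12.4% of all windows held, occurred in 0 of the 18. The E-box letters CACGTG were in 2 of the 18 windows and in 6.02% of all, and the letters TGACGTCA were in 0 of the 18 and in 1.55% of all. These are matches of letters, and no binding was measured here.

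The 2 irradiated arrays were dimmer than the others. Their median signals were 18.7 units in WT and 18.7 units in KO cells, against 30.3 and 34.5 units without irradiation. Signal is the linear MAS5 intensity of a probe set. A floor was set at 24.9 units, the median over probe sets of their mean signal. Values under it were raised to it, and a fold against such a value is given as at least that fold. Each gene is represented by its brightest probe set, and 11379 genes, 9 of the 10 among them, reached the floor in their mean over the arrays and are called measured. Over these 11379 genes the median UVB difference was -0.70 on the log2 scale in WT and -0.82 in KO cells with the values as deposited. After quantile normalization, with 11416 genes measured, it was 0.05 in both. Directions after UVB are therefore read beside that median and after other scalings. Mapk14 itself read 985.4 units without and 292.5 units after UVB in WT, and 1449 and 646.8 units in KO cells. The part of the gene that was deleted is not given in the sources used here and the array reads the 3′ end of transcripts, so this signal does not check the genotype. On its 5 measured probe sets the unirradiated KO signal was 0.734 to 2.02 times that of WT. All 6 basal and all 9 suprabasal keratinocyte markers were measured. Krt5 (12614 to 13795 units) and Krt14 (11820 to 12588 units), the keratins of basal keratinocytes, were bright on all 4 arrays, while the basal markers Trp63 (1676 and 150.5 units without and after UVB in WT, 1931 and 235.5 in KO cells) and Itga6 (2941 and 1135 units in WT, 2840 and 1385 in KO cells) read lower after UVB as deposited.

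Sgms1 was the gene of the set with the lowest signal after UVB relative to its unirradiated level. Sgms1 encodes the Golgi sphingomyelin synthase, which moves phosphocholine from phosphatidylcholine onto ceramide. Its signal was 1240 units without and 78.6 units after UVB in WT, and 1390 and 83.3 units in KO cells. Both irradiated arrays were low and both unirradiated arrays high, with little distance between genotypes. The signal was 15.8-fold lower after UVB in WT and 16.7-fold in KO cells (log2 differences of -3.98 and -4.06). Set against the median of all genes, it was 9.69-fold lower in WT and 9.46-fold in KO cells, and after quantile normalization 8.52-fold and 8.66-fold lower. Of the 11379 genes, Sgms1 had the 6th lowest UVB difference in WT and the 4th lowest in KO cells. In these whole cultures, fewer cells of a type and less RNA per cell cannot be told apart.

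The 4 probe sets of Sgms1 did not give the same size. The second read 993.5 units without and 88.5 units after UVB in WT, and 910.1 and 77.7 units in KO cells, 11.2-fold lower after UVB in WT and 11.7-fold in KO cells. The third, at 452.5, 89.9, 500.6 and 97.7 units in the same order, was 5.04-fold and 5.12-fold lower. The dimmest, at 54.2, 45.1, 62.1 and 39.0 units, had log2 differences of -0.26 and -0.67, a size smaller than or close to the shift of all genes. The 3 brighter probe sets thus read far lower after UVB in both genotypes and the dimmest did not.

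**Figure D1:**
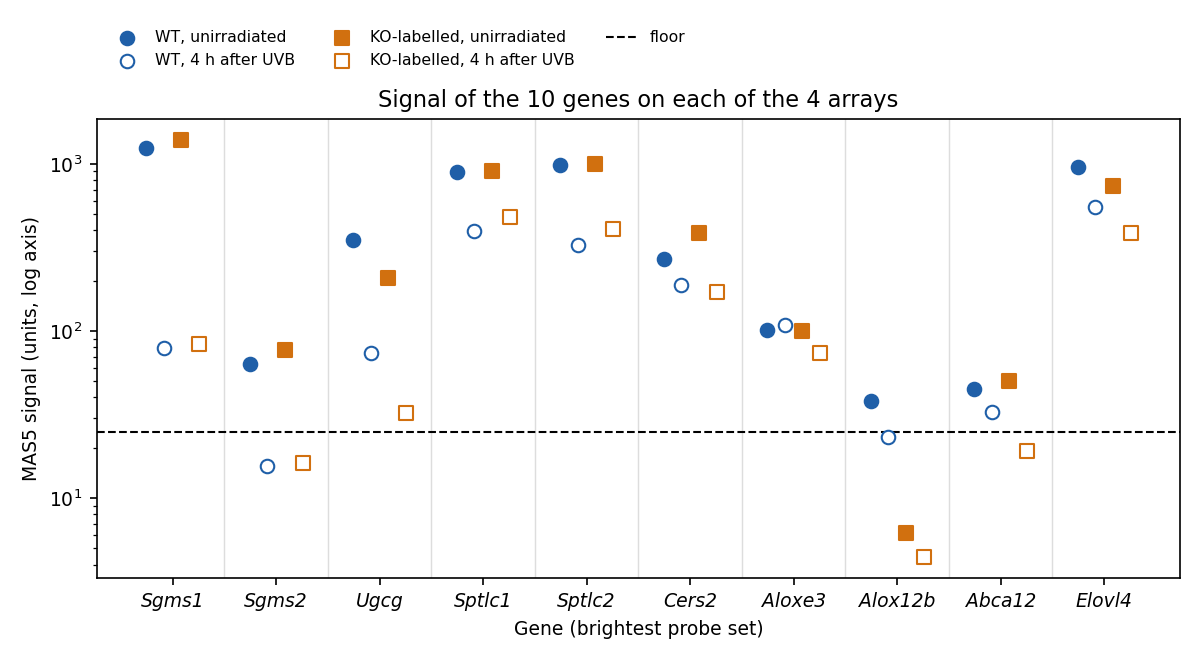
MAS5 signal (log axis, units) of the brightest probe set of each of the 10 genes on each of the 4 arrays (circles WT, squares KO, 1 array each), with the floor of 24.9 units as a dashed line. Sgms1 lies at 1240 and 1390 units without irradiation and at 78.6 and 83.3 units after UVB, while the 4 points of Aloxe3 lie between 74.0 and 108.1 units.

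The other sphingomyelin synthase gene, Sgms2, whose enzyme works at the plasma membrane as well as the Golgi, was dim. It read 63.3 units without and 15.6 units after UVB in WT, and 76.4 and 16.1 units in KO cells. Both irradiated values lie under the floor, so the signal was at least 2.54-fold lower after UVB in WT and at least 3.07-fold in KO cells, and after quantile normalization it stayed past 2-fold (log2 differences of -1.02 and -1.11, both bounds). Its second probe set, at 55.8, 22.9, 58.1 and 16.8 units, was likewise under the floor on both irradiated arrays.

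Ugcg, the glucosylceramide synthase that makes the precursor of the barrier ceramides, had the second lowest UVB difference of the set. It read 350.7 units without and 73.6 units after UVB in WT, and 207.2 and 32.5 units in KO cells. The unirradiated WT array was the highest and the irradiated KO array the lowest. After UVB the signal was 4.77-fold lower in WT and 6.38-fold in KO cells, or 2.93-fold and 3.62-fold lower relative to the median of all genes. A still lower UVB difference was found for 4.27% of all genes in WT and for 1.76% in KO cells. After quantile normalization the log2 differences were -1.23 in WT and -1.61 in KO cells. The second probe set (243.6, 51.6, 179.6 and 35.7 units) was 4.72-fold lower in WT and 5.03-fold in KO cells. The third (221.0, 60.8, 191.9 and 35.8 units) was 3.63-fold and 5.36-fold lower, and the fourth lay under the floor.

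Sptlc1 and Sptlc2 encode the subunits that form the core of serine palmitoyltransferase, the first and rate-limiting step of the pathway. Sptlc2 read 977.8 units without and 325.3 units after UVB in WT, and 1001 and 408.2 units in KO cells. It was 3.01-fold lower after UVB in WT and 2.45-fold in KO cells, and its second probe set was 2.60-fold and 3.48-fold lower. Sptlc1 read 897.4 units without and 394.0 units after UVB in WT, and 909.9 and 481.8 units in KO cells. It was 2.28-fold lower after UVB in WT and 1.89-fold in KO cells. Without irradiation both genes differed little between genotypes. After quantile normalization the UVB differences shrank to -0.87 in WT and -0.51 in KO cells for Sptlc2 and to -0.50 and -0.13 for Sptlc1 (log2), and with the median of each array aligned Sptlc1 turned to 0.21 in KO cells. The second probe set of Sptlc1, at 306.8, 153.5, 362.9 and 212.9 units, was also lower on the irradiated array of each genotype, as were the 2 dimmer ones.

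Cers2 encodes the ceramide synthase that prefers very long acyl-CoAs. Its signal was 270.2 units without and 189.3 units after UVB in WT, and 383.7 and 170.1 units in KO cells, so the highest and the lowest value were both in KO cells. As deposited it was 1.43-fold lower after UVB in WT and 2.26-fold in KO cells. After quantile normalization the log2 differences were 0.42 in WT and -0.14 in KO cells, so the WT direction turned, as it did under the other 2 scalings.

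**Figure D2:**
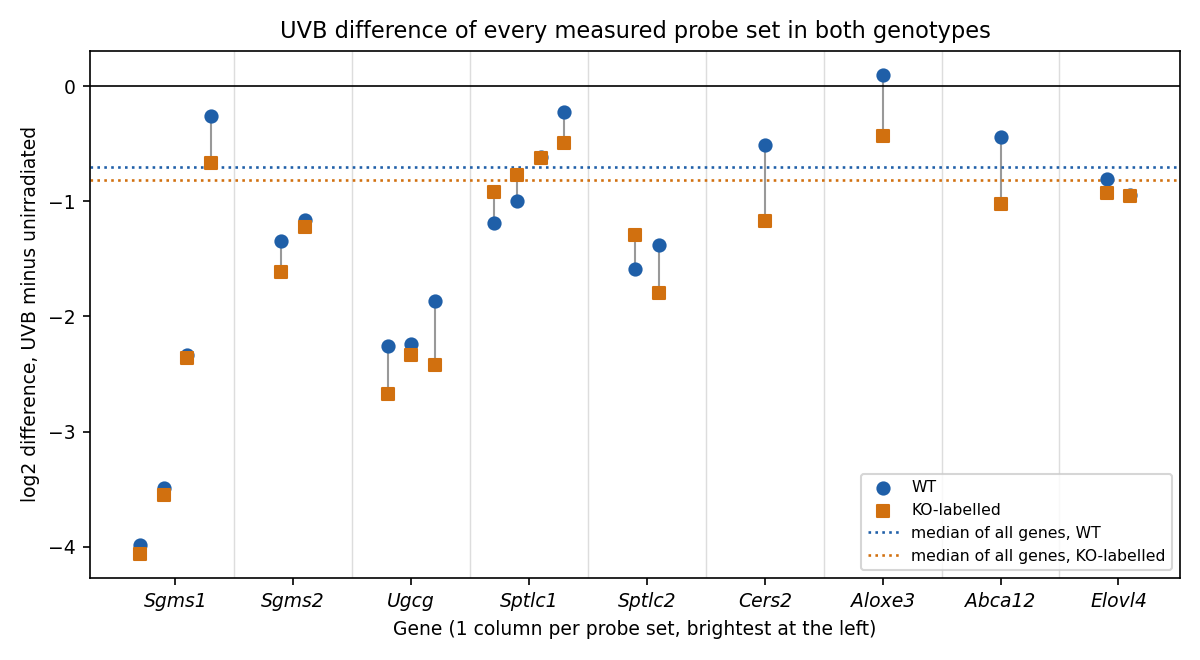
Log2 difference between UVB and no irradiation for each measured probe set of the 9 measured genes, as deposited (circles WT, squares KO), with the medians of all genes (-0.70 and -0.82) as dotted lines. The brightest Sgms1 probe set lies at -3.98 and -4.06 and the dimmest at -0.26 and -0.67. Points near the dotted lines can change sign under another scaling.

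Elovl4 elongates fatty acids to the ultra-long chains of acylceramides, and Abca12 loads glucosylceramide into lamellar granules. Elovl4 read 958.5 units without and 548.9 units after UVB in WT, and 736.0 and 387.3 units in KO cells. It was 1.75-fold lower after UVB in WT and 1.90-fold in KO cells, close to the shift of all genes, and 1.93-fold and 1.94-fold lower on its second probe set. With the medians of the arrays aligned its differences turned to 0.27 and 0.20 (log2). Abca12 read 44.8 units without and 32.9 units after UVB in WT, and 50.5 and 19.1 units in KO cells. It was 1.36-fold lower in WT, a direction that turned under the other 3 scalings (log2 difference of 0.43 after quantile normalization), and at least 2.03-fold lower in KO cells, against a value under the floor.

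The lipoxygenase genes Alox12b and Aloxe3 encode the enzymes that act one after the other on the linoleate of acylceramides. Aloxe3 was the only one of the 9 measured genes with a higher signal after UVB as deposited, in WT alone, and it read higher in both genotypes under the other 3 scalings. Its signal was 101.0 units without and 108.1 units after UVB in WT, and 99.8 and 74.0 units in KO cells. It was 1.07-fold higher after UVB in WT, above 93.7% of all genes, and 1.35-fold lower in KO cells, above 74.5% of all genes. After quantile normalization its differences were 1.13 in WT and 0.69 in KO cells (log2). Alox12b had a mean signal under the floor and is not counted. It read 38.3 units without and 23.2 units after UVB in WT, and 6.17 and 4.44 units in KO cells, so only the unirradiated WT array was above the floor.

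Of the 9 measured genes, 5 were at least 2-fold lower after UVB in WT, as were 34.8% of all genes, and 0 were at least 2-fold higher, as were 0.58% of all genes. In KO cells 6 were at least 2-fold lower, as were 39.3% of all genes, and 0 higher, as were 0.167% of all genes. The genes lower in both genotypes were Sgms1, Sgms2, Ugcg and Sptlc2, with Sptlc1 added in WT and Cers2 and Abca12 added in KO cells. The median log2 difference over all 9 was -1.19 in WT and -1.17 in KO cells. After quantile normalization 3 of the 9 stayed at least 2-fold lower in each genotype, Sgms1, Sgms2 and Ugcg, beside 9.69% of all genes in WT and 8.38% in KO cells. Aloxe3 was then at least 2-fold higher in WT, beside 5.31% of all genes, and 0 were in KO cells, beside 4.06%. With aligned medians Sgms1 and Ugcg were at least 2-fold lower in WT (7.55% of all genes) and Aloxe3 at least 2-fold higher (11.2%), and Sgms1, Sgms2 and Ugcg were lower in KO cells (6.67%), with 0 higher (8.75%). With a common trimmed mean Sgms1, Sgms2 and Ugcg were lower in WT (14.5%) and in KO cells (12.9%), and 0 were higher (2.46% and 1.75%). The genes were chosen with this comparison known, so nothing is read from these shares.

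**Figure D3:**
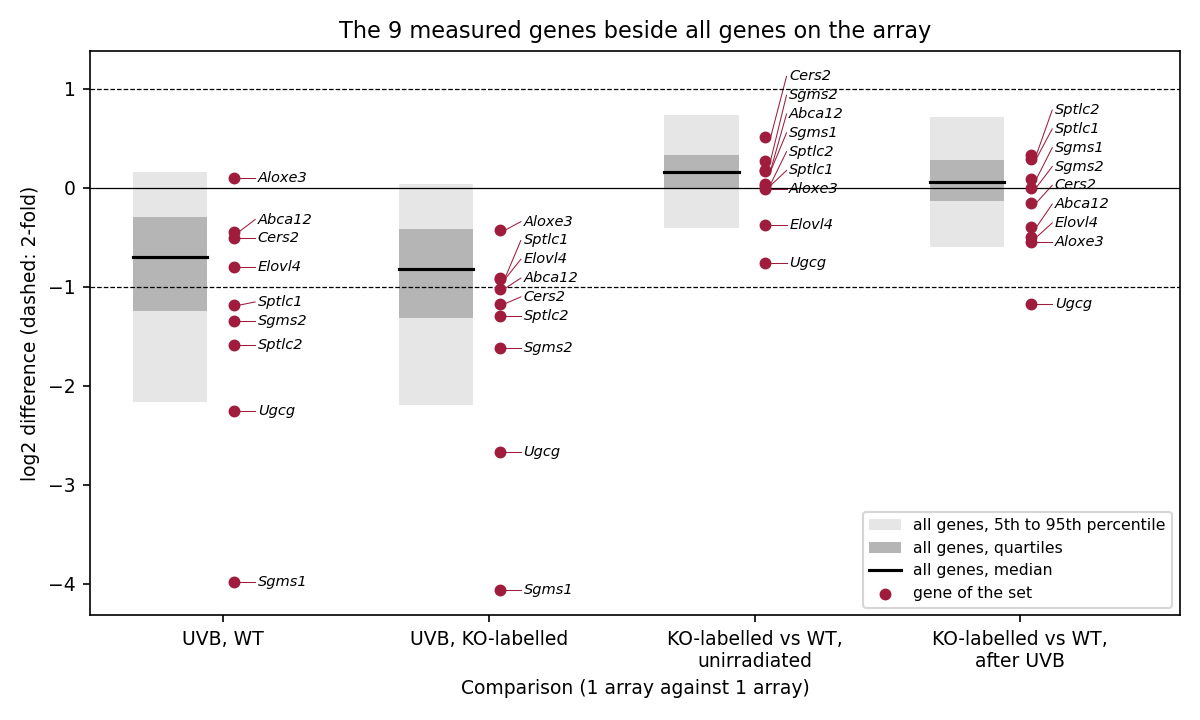
Log2 differences of the 9 measured genes (points) beside all 11379 genes (boxes to the quartiles and to the 5th and 95th percentiles, black line at the median) in 4 comparisons of 1 array with 1 array, as deposited, with 2-fold dashed. Sgms1 lies far below the others after UVB, and Ugcg is the lowest of the 9 in both comparisons of the genotypes (-0.76 and -1.18).

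Between the genotypes, Ugcg was the gene of the set that read lowest in KO cells relative to WT. Its signal of 207.2 units in unirradiated KO cells was 1.69-fold lower than the 350.7 units in WT, with 1.63% of all genes lower still. After UVB, 32.5 units against 73.6 units made it 2.27-fold lower, with 0.958% of all genes lower still. The direction was the same on its 3 measured probe sets, by 1.15-fold to 1.69-fold without irradiation and by 1.44-fold to 2.27-fold after UVB. It was also the same under the 3 other scalings, where Ugcg was 1.89-fold to 1.95-fold lower without irradiation and 2.35-fold to 2.54-fold lower after UVB. With the mean over its probe sets the difference after UVB was under 2-fold (-0.62, log2). Elovl4 was 1.30-fold lower in unirradiated and 1.42-fold lower in irradiated KO cells, and 1.41-fold to 1.52-fold lower under the other scalings. Its second probe set, at 996.3, 517.0, 715.9 and 369.0 units, gave the same direction in both comparisons.

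The other genes of the set differed between genotypes by less than 2-fold wherever both values were above the floor. Sgms1 was 0.16 higher in KO cells without irradiation and 0.08 higher after UVB (log2), beside medians of all genes of 0.16 and 0.05, and after quantile normalization it differed by 0.01 and -0.01. Sgms2 was 0.27 higher without irradiation and under the floor in both genotypes after UVB. Sptlc1 and Sptlc2 were 0.02 and 0.03 higher without irradiation, which turned to -0.16 and -0.14 after quantile normalization, and 0.29 and 0.33 higher after UVB. The second probe set of Sptlc2 was 0.27 lower in KO cells after UVB, opposite to the brightest. Cers2 was 1.42-fold higher without irradiation and 0.15 lower on the log2 scale after UVB. Aloxe3 differed by -0.02 without irradiation and was 1.46-fold lower after UVB, and Abca12 by 0.17 without irradiation and at least 1.32-fold lower after UVB. The directions of Cers2 and Aloxe3 in both conditions and of Abca12 after UVB were the same under the other 3 scalings. Alox12b was at least 1.54-fold lower in unirradiated KO cells. Without irradiation 0 of the 9 passed 2-fold, against 0.729% of all genes lower and 1.63% higher. After UVB 1 of the 9, Ugcg, was 2-fold lower, against 1.47% of all genes lower, and 0 were higher, against 1.41%. Between the UVB responses of the genotypes, which share all 4 arrays, 0 of the 9 differed by 2-fold, against 2.94% of all genes in the lower and 1.34% in the higher direction.

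Markers of cell state and of other cell types also differed between the unirradiated cultures. Tgm1, which cross-links the cornified envelope, read 1052 units in WT and 560.8 in KO cells, and Lor and Flg, late differentiation genes, read 297.1 against 149.9 and 84.8 against 35.8 units. Krt1 (1287 against 1814 units) and Krt10 (659.4 against 1170 units), keratins of suprabasal cells, ran the other way, as did Ivl, Dsc1, Dsg1a and Tgm3, which read 1.16 to 1.24 times as high in KO cells as in WT. The 9 suprabasal markers summed to 4291 units in unirradiated WT and 4839 in unirradiated KO cells. The 8 fibroblast markers, all measured, summed to 3531 units without and 2770 units after UVB in WT, and 6780 and 4736 units in KO cells. The 7 melanocyte markers, all measured, summed to 5954, 4823, 8420 and 5603 units in the same order. Of the leukocyte markers 2 of 6 were measured, Cd68 and Cd74, and the list summed to 330.0 to 509.9 units. Of the sebocyte markers 2 of 3 on the array were measured, and the list summed to 182.7 to 387.5 units. Of the endothelial markers 0 of 5, and of the adipocyte markers 0 of 4, had a mean signal that reached the floor. The part of these differences in the values of Ugcg, Elovl4 and Cers2 was not tested.

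The rest of the pathway was described from 6 lists of genes, which were drawn up knowing earlier results of these arrays. Leaving out the 10 genes, 62 genes of these lists were measured. Of these, 16 were at least 2-fold lower after UVB in WT and 22 in KO cells, beside 34.8% and 39.3% of all genes, and 0 were 2-fold higher in either. The same shares of all genes stand beside each count of lower genes as deposited below. Beside each such count after quantile normalization stand 9.69% and 8.38%. With aligned medians 7.55% and 6.67% of all genes were lower, and with a common trimmed mean 14.5% and 12.9%. The shares of all genes 2-fold higher were 0.58% and 0.167% as deposited. The median log2 differences of the 62 genes were -0.58 in WT and -0.70 in KO cells, less negative than the medians of all genes as deposited (-0.70 and -0.82). The lists differed among themselves, and their counts and medians below include the genes of the set unless stated. Sphingomyelin and glycosphingolipid synthesis with ceramide transport, to which Sgms1, Sgms2, Ugcg and Abca12 belong, had the lowest median, -1.71 in WT and -1.77 in KO cells, with 7 and 8 of 10 measured genes at least 2-fold lower. After quantile normalization its medians were -1.03 and -0.96, with 6 and 5 of 10 at least 2-fold lower. Without those 4 genes the 6 left had medians of -1.61 and -1.51.

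Among these genes, Cert1, the protein that carries ceramide from the endoplasmic reticulum to the Golgi, read 709.2 units without and 126.5 units after UVB in WT, and 863.6 and 134.1 units in KO cells. It was 5.60-fold lower after UVB in WT and 6.44-fold in KO cells. Samd8, a ceramide phosphoethanolamine synthase related to the sphingomyelin synthases, read 287.9, 68.1, 283.3 and 75.0 units in the same order and was 4.23-fold and 3.78-fold lower. Plekha8, a glucosylceramide transfer protein, had probe sets that disagreed. The brightest (178.0, 17.1, 177.7 and 16.6 units) was at least 7.15-fold and 7.14-fold lower, while the other measured one (89.5, 94.8, 88.3 and 88.8 units) hardly moved. The dimmer probe sets of Cert1 and Samd8 kept the order of the unirradiated and irradiated arrays. Cert1 and Samd8, like Sgms1, therefore read low on both irradiated arrays and high on both others.

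In the serine palmitoyltransferase list, 3 of 6 measured genes were at least 2-fold lower in WT and 2 in KO cells, with medians of -0.90 and -0.87. Without Sptlc1 and Sptlc2, 1 of the 4 left was at least 2-fold lower in each genotype. The medians of these 4 were -0.52 and -0.47, less negative than those of all genes. After quantile normalization 0 of all 6 were lower in either genotype, with medians of -0.15 and -0.01. With aligned medians 0 were lower, and 1 in WT and 2 in KO cells were 2-fold higher, beside 11.2% and 8.75% of all genes. Kdsr, the reductase of the second step, read 410.3, 149.5, 420.9 and 153.4 units and was 2.74-fold lower in both genotypes. Sptlc3, an alternative catalytic subunit, was 1.35-fold and 1.09-fold lower as deposited and higher under the other 3 scalings (0.48 and 0.83, log2, after quantile normalization). Ormdl1, an inhibitor of the enzyme, was 1.52-fold and 1.77-fold lower as deposited and higher after quantile normalization (0.21 and 0.10, log2). In the list of ceramide synthases and dihydroceramide desaturases, 0 of 7 were at least 2-fold lower in WT and 4 in KO cells, with medians of -0.51 and -1.09. Without Cers2, 0 and 3 of the 6 left were, with medians of -0.53 and -0.90. Under each of the other 3 scalings 0 of 7 were lower in either genotype, with medians of 0.11 and -0.14 after quantile normalization. The ceramide synthase genes Cers3 (1.36-fold and 1.63-fold), Cers5 (1.49-fold and 2.24-fold) and Cers6 (1.78-fold and 2.35-fold) were lower as deposited in WT and KO cells. With aligned medians all 3 were higher in WT, by 0.62, 0.50 and 0.24 (log2), and Cers3 was also higher in KO cells, by 0.43.

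**Figure D4:**
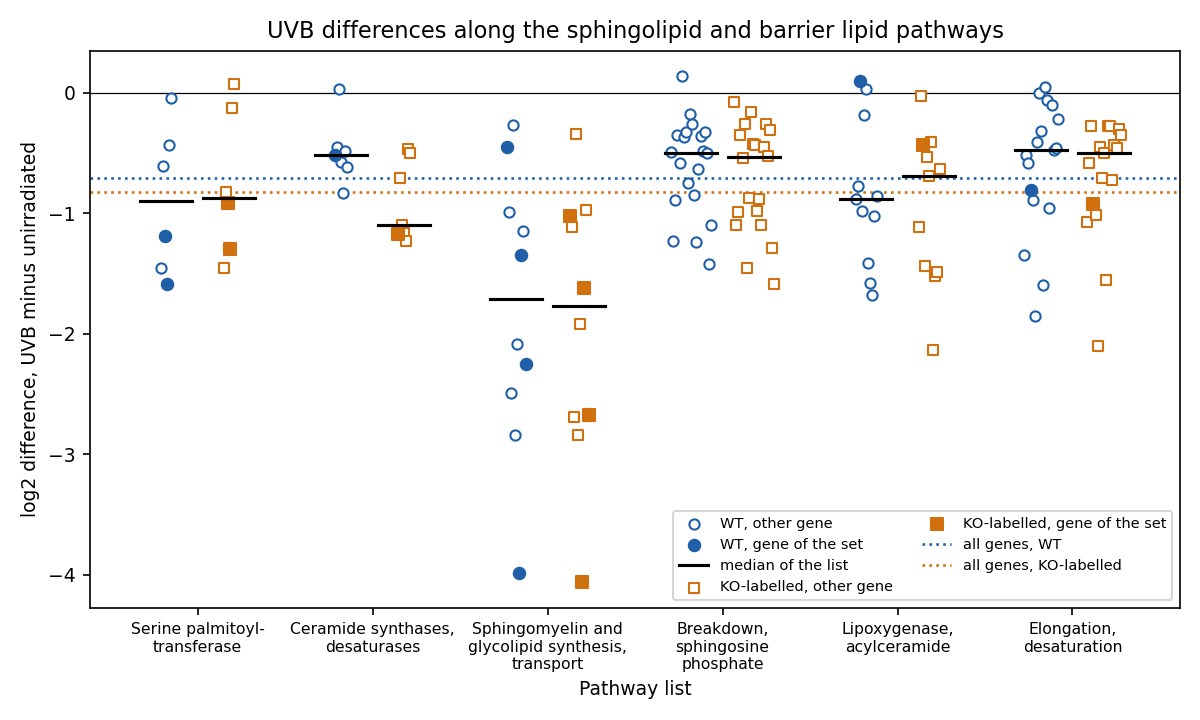
Log2 difference between UVB and no irradiation, as deposited, of the measured genes of 6 pathway lists in WT (circles) and KO cells (squares), with the 9 measured genes of the set filled, list medians as black bars and the medians of all genes as dotted lines. The list of sphingomyelin and glycosphingolipid synthesis and ceramide transport has medians of -1.71 and -1.77. Those of sphingolipid breakdown (-0.50 and -0.53) and fatty acid elongation (-0.47 and -0.50) lie above the dotted lines as deposited, and after quantile normalization those of breakdown were positive.

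Genes that break sphingolipids down or act on sphingosine had medians of -0.50 in WT and -0.53 in KO cells, with 4 and 5 of 20 at least 2-fold lower. Under each of the other 3 scalings 0 of 20 were. After quantile normalization the medians were 0.23 and 0.21, with 1 gene 2-fold higher in each genotype, beside 5.31% and 4.06% of all genes. As deposited, Sphk1 (2.67-fold and 2.44-fold) and Sphk2 (log2 differences of -1.10 and -1.58), the kinases that make sphingosine 1-phosphate, were among them, as was the ceramidase gene Acer2 (2.34-fold and 2.13-fold). Acer2 was near 0 in KO cells after quantile normalization (0.02, log2), and the dimmer probe set of Sphk2 was 0.13 higher in WT (log2). In the lipoxygenase and acylceramide list the medians were -0.88 and -0.69, with 4 and 5 of 11 at least 2-fold lower. Without Aloxe3 the medians were -0.93 and -0.90, with 4 and 5 of 10 at least 2-fold lower. After quantile normalization 0 and 1 of 11 were, with medians of 0.05 and 0.23. In WT 1 gene was then 2-fold higher, beside 5.31% of all genes. As deposited, Nipal4, a membrane protein that is mutated in a congenital ichthyosis, read 890.3, 299.0, 928.9 and 211.4 units and was 2.98-fold and 4.39-fold lower. Pnpla1, the transacylase that makes acylceramide, was 3.19-fold and 2.86-fold lower, and the dehydrogenase gene Sdr9c7 was 2.03-fold and at least 2.80-fold lower, though 0.04 higher in WT with aligned medians (log2). Among fatty acid elongation and desaturation genes, with medians of -0.47 and -0.50, 3 and 4 of 17 were at least 2-fold lower. Without Elovl4 the medians were -0.47 and -0.48, with 3 and 4 of 16 at least 2-fold lower. After quantile normalization 1 and 1 of 17 were, with medians of -0.09 and 0.03. With aligned medians 0 and 0 were, with 3 genes 2-fold higher in WT, beside 11.2% of all genes. As deposited, Elovl6, which elongates palmitate, read 563.9, 156.6, 709.2 and 165.5 units, with log2 differences of -1.85 and -2.10. Fasn (fatty acid synthase) was 3.02-fold and 2.93-fold lower, and Acaca (acetyl-CoA carboxylase) 2.54-fold and 2.10-fold, with 0.06 (log2) in KO cells for Acaca under aligned medians.

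The 5 genes whose profile over the 4 arrays was nearest to that of Sgms1 were Rnf145, Rapgef2, Lrp6, Tsc22d2 and Iffo2. Nearness was the Euclidean distance between log2 profiles centred on their means, and these distances ran from 0.30 to 0.45. Rapgef2 read 22.4 units in WT and 12.7 units in KO cells after UVB, so its distance rests on values raised to the floor. Rnf145, a ubiquitin ligase of the endoplasmic reticulum, read 1020 units without and 79.6 units after UVB in WT, and 1116 and 81.4 units in KO cells. Lrp6, a Wnt co-receptor, read 330.6, 26.0, 331.3 and 25.3 units in the same order, with its irradiated values just above the floor. Within the set, the nearest gene to Sgms1 was Ugcg at a distance of 1.91, while Sptlc2 and Sgms2 lay 0.29 apart, with the irradiated values of Sgms2 at the floor.

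The genes of the set also differ in the length of the gene body, a property that was not used to choose them. From first to last base in RefSeq (GRCm38.p6), Sgms1 spans 267.2 kb, Sgms2 172.5 kb, Abca12 171.8 kb, Sptlc2 83.3 kb, Sptlc1 44.7 kb, Ugcg 33.3 kb, Elovl4 27.6 kb, Aloxe3 23.7 kb, Alox12b 12.7 kb and Cers2 8.83 kb. Over all genes the median UVB difference was -0.40 in WT and -0.54 in KO cells for the 2911 genes of up to 10 kb. It was -0.95 and -1.02 for the 3270 genes of 30 to 100 kb and -0.79 and -0.92 for the 465 genes over 200 kb. Span and UVB difference had a Spearman rho of -0.33 in WT and -0.31 in KO cells across 11351 genes. Across the 9 genes rho was -0.57 and -0.57. These 9 share the same pair of arrays, are not independent, and were chosen with their UVB values known. Sgms2 in both genotypes and Abca12 in KO cells enter as bounds, so nothing is read from the rho of the 9. Sgms1 lay far below the median of its span class and Ugcg below that of its own, while Abca12, at 171.8 kb, lay above its class in WT. The part of gene length in these values was not tested.

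**Figure D5:**
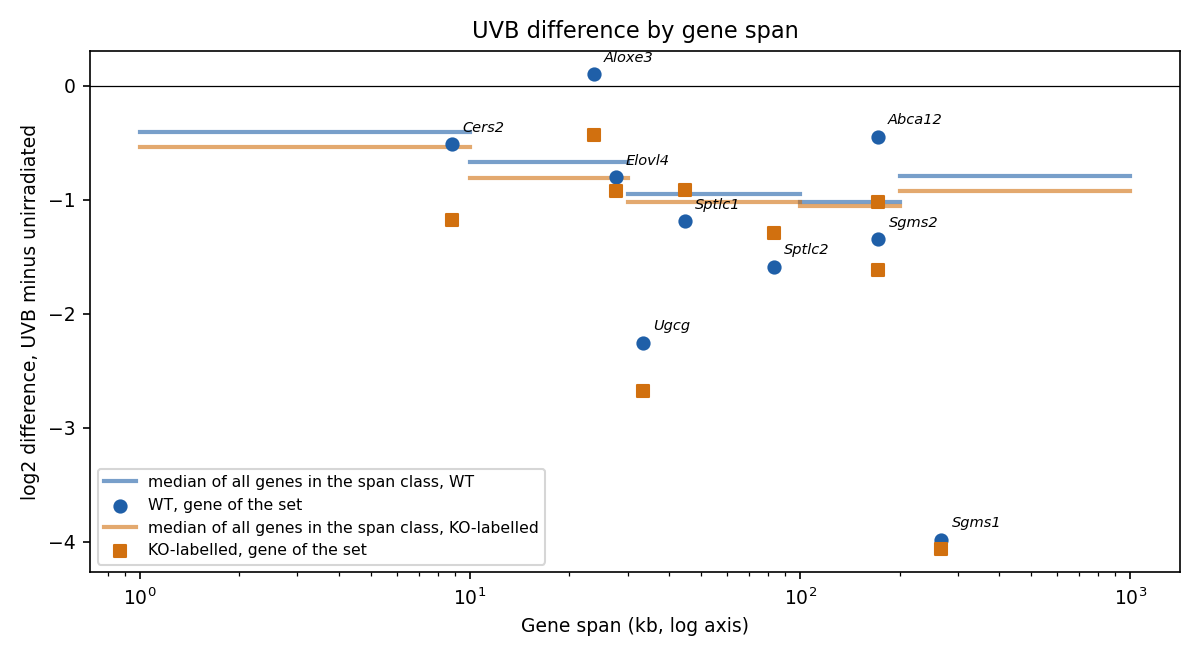
Log2 difference between UVB and no irradiation, as deposited, against gene span (kb, log axis) for the 9 measured genes (circles WT, squares KO), with the median of all genes in each span class as horizontal bars. Sgms1, at 267.2 kb, lies at -3.98 and -4.06 where its class has medians of -0.79 and -0.92, and Ugcg, at 33.3 kb, lies at -2.25 and -2.67 where its class has -0.95 and -1.02.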

How the data were processed

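Total RNA of cultured keratinocytes was labelled from the 3′ end and hybridised to Affymetrix arrays, 1 per group. The authors deposited linear signal intensity per probe set, summarised with MAS5 per the submitters' processing notes. The scaling target is not given in the sources used here, and detection calls were not used. Symbols came from the platform annotation: of 45101 probe sets, 64 are controls, 34945 carry 1 symbol, 932 several and 9160 none, and those with 1 symbol were used. The values were taken as deposited, raised to a floor of 24.9 units and set to log2 (Python 3.11.15, numpy 2.4.6, pandas 2.3.3), and genes were counted at 2-fold. The script was tested on simulated data.

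The members, the pathway lists and the marker lists were chosen with earlier results of these data known. Named were all members, Mapk14, up to 3 measured genes per pathway list with the largest mean UVB difference, the 5 genes nearest to Sgms1, and markers. Alternatives were quantile normalization, median alignment, a common 2% trimmed mean, floors at the 25th and 75th percentiles, 1.5-fold and 3-fold thresholds, the mean over probe sets, and leaving out probe sets with shared sequences. The number of arrays limits the precision.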

Additional observations from a re-analysis of the deposited data

Results flagged for a closer look

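For 3 genes the direction of a difference was opposite in the groups compared, as deposited. These contrasts rest on single arrays and were not tested. The UVB difference of Aloxe3 was 0.10 in WT but -0.43 in KO cells, which is -0.53 for KO minus WT (log2), and both were positive under the other 3 scalings. For Cers2, KO against WT was 0.51 without irradiation and -0.15 after UVB, a change of -0.66. For Abca12 it was 0.17 without irradiation and -0.40 after UVB, a change of -0.57 that rests on a value under the floor. The 0.17 lies beside a median of 0.16 for all genes. It shrank to 0.001 after quantile normalization and to 0.01 under each of the other 2 scalings, so little unirradiated difference remained.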

How the results depend on the processing

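Counts here are of measured members past 2-fold, or past another threshold where stated, in either direction. They are out of 9, except with other floors. With the floor at the 25th percentile 10 members were measured, Alox12b included, and with the floor at the 75th percentile 6 were. After UVB, where 5 members passed in WT and 6 in KO cells, 3 passed in KO cells after quantile normalization, and 3 and 3 passed in WT and KO cells with medians aligned and with a common trimmed mean. With the floor at the 75th percentile 3 passed in KO cells, at 3-fold 3 and 3 did, and with the mean over probe sets 3 did in WT. For KO against WT after UVB, where 1 member passed, 2 did with the floor at the 25th percentile and 0 with the floor at the 75th percentile, at 3-fold or with the mean over probe sets. Without irradiation, where 0 passed, 1 did with the floor at the 25th percentile and 1 at 1.5-fold. For the difference of the UVB responses, where 0 passed, 1 did at 1.5-fold. Shares of all genes under the other floors, the other thresholds and the mean over probe sets are not given here. Nothing is therefore read from the counts of members under those settings. Of 300 values of single members under these alternatives, 240 moved by less than 1.5 times and 60 by more. The 45 values without probe sets of shared sequence were fixed, since no measured member has such a set as its brightest. Members with 1 probe set could not move under the mean over probe sets either. Quantile normalization moved 15 values, median alignment 17 and a common trimmed mean 15, all of them UVB differences. No paired analysis was possible because each group has 1 array. Comparisons of Alox12b, Sgms2 and Abca12 that involve a signal under the floor give bounds only.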

Other observations

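Some further lipid genes differed between the unirradiated cultures. They were chosen after their values were seen and rest on 1 array per group. Degs2, which makes phytoceramides, read 101.4 units in WT and 48.0 units in KO cells (log2 difference -1.08), and after UVB 66.3 and 33.9 units. Cers4, a ceramide synthase, read 18.5 units in WT, under the floor, and 53.2 units in KO cells (at least 1.09 higher on the log2 scale). That value holds as deposited, and after quantile normalization, median alignment or a common trimmed mean it did not reach 2-fold. Fads1, a fatty acid desaturase, read 208.2 units in WT and 389.1 units in KO cells without irradiation (0.90), and 208.5 and 238.1 units after UVB. The list of fatty acid elongation and desaturation genes had a median of 0.26 for KO against WT without irradiation, beside 0.16 for all genes.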
